A study of Mus musculus with 31 samples.

Results

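Transcripts of the transforming growth factor beta (TGF-β) pathway were read in Panc02 cells, a mouse pancreatic adenocarcinoma line, through 9 genes chosen by their symbols. Ligand protein and signalling activity were not measured. The genes were 5 ligand genes (Tgfb1, Tgfb2, Tgfb3, Inhba and Bmp4), 2 genes of latent TGF-β binding proteins (Ltbp1 and Ltbp2) and 2 genes that TGF-β is known to induce (Tgfbi and Smad7). They are 9 of the 55487 to 56980 genes listed in 3 tables of RNA-seq read counts, and each symbol had a single entry in every table. The 31 samples fell into 11 groups. The labels of the rescue samples name cell lines that run on from Panc02 in number, and they are taken as Panc02 here because the study's methods name no other line of that name.

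In the first table, WT Panc02 spheroids in Matrigel were kept in DMEM with serum (Ctrl), in medium conditioned by unstimulated bone marrow-derived macrophages (M0-CM) or in medium from macrophages given IFNγ and LPS (M1-CM), with 3 samples each. Both conditioned media also carried L929 cell supernatant, which Ctrl is not stated to hold. In the second table, WT cells and Cxcl5-/- cells were each grown in 2D or in 3D, giving 4 groups of 3 samples. The third, the rescue table, held 3D-cultured WT (2 samples), Cxcl5-/- (2), Hif1αOE Cxcl5-/- (3) and MycOE Cxcl5-/- (3) cells. Cxcl5-/- cells were made with a lentiviral CRISPR/Cas9 vector and selected with puromycin. Whether the line was 1 clone is not stated. Hif1αOE and MycOE cells carried a retroviral stabilised mutant Hif1a or a Myc cDNA in the Cxcl5-/- background, and an empty-vector line was not analysed here. How many spheroids were pooled per RNA sample, and whether these samples came from separate cultures, is not given. The study's methods speak of independent biological replicates in general without tying them to the sequenced samples, so p-values measure the spread between these samples, which may be technical.

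TGF-β ligands are secreted bound to their propeptide. Latent TGF-β binding proteins such as that of Ltbp1 tether this inactive complex to the extracellular matrix until integrins or proteases release it. The same role is not claimed here for the Ltbp2 product. Free ligand joins type II and type I receptor kinases, which phosphorylate SMAD proteins that enter the nucleus with SMAD4. Activins, dimers of the Inhba product, use the same SMADs as TGF-β through activin receptors, whereas BMP ligands use a separate set. In pancreatic cancer the pathway is known both for slowing growth and for driving matrix production and mesenchymal change.

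The letters before the transcript start are shown for Inhba, Ltbp1 and Tgfbi because Inhba and Ltbp1 were called lower in Cxcl5-/- in both tables and Tgfbi higher in Hif1αOE Cxcl5-/-. Sequences are from RefSeq on GRCm38.p6, plus strand, written 5′ to 3′ up to the base before the annotated start or first exon. Inhba lies at chr13:16011601-16011850, Ltbp1 at chr17:75005279-75005528 and Tgfbi at chr13:56609336-56609522. The Tgfbi stretch is shorter because an annotated exon begins before the transcript start used for counting positions. The genes themselves span chr13:16011851-16031621 (Inhba), chr17:75005568-75392512 (Ltbp1) and chr13:56609523-56639562 (Tgfbi), all on the plus strand of GRCm38. Capitals mark ACGTG or GCGTG, the core letters bound by HIF, and CAGAC, the core letters bound by SMADs, on either strand.
Inhba: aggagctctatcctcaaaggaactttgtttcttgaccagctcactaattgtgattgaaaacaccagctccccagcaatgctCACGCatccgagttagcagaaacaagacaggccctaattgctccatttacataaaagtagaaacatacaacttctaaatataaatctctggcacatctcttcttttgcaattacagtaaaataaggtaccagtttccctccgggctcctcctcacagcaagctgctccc
Ltbp1: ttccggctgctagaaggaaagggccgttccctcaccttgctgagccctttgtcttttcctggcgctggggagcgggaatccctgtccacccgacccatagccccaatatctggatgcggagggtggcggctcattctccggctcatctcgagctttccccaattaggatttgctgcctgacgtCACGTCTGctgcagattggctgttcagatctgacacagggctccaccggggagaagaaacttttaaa
Tgfbi: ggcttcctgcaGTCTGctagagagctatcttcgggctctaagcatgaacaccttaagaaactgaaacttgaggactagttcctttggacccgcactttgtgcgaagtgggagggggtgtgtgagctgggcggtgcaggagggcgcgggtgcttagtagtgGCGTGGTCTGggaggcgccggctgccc
Inhba held GCGTG 169 bases before the start and no CAGAC. Ltbp1 held ACGTG 67 bases and CAGAC 64 bases before the start, and these share letters. Tgfbi held CAGAC 239 bases, GCGTG 90 bases and CAGAC 85 bases before the start, the last pair adjoining. CACGTG, the E-box bound by Myc with Max, was in none of these 3 windows. Among the other members searched, it was 51 bases before the start of Tgfb2 and 188 bases before that of Bmp4. Such letters are common: among 32851 mouse promoters with windows of 250 bases, 38.6% held ACGTG or GCGTG, 42.2% held CAGAC and 6.02% held CACGTG on either strand. A second Ltbp1 start listed by RefSeq, inside the gene, is not shown. Of the 9 members, 7 had a promoter entry that was searched, and in these a match describes letters only.

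Read depth ran from 41542533 to 78498230 counts per sample. Levels are given as CPM, read counts scaled to a common library size by TMM, in which 3 counts, taken as the floor, come to between 0.0381 and 0.07 CPM. A gene was called when the adjusted p of edgeR's quasi-likelihood test was under 0.05. Krt8, Krt18 and Vim were abundant, but Epcam and Cdh1, defining epithelial markers, had at most 3 counts per sample in Ctrl, M0-CM, M1-CM, both 2D groups and 3D Cxcl5-/-. Adgre1, a defining macrophage marker, was likewise at or below the floor in every group but WT of the rescue table, and so was Itgam in all but 2 groups. Fewer cells of a kind and less RNA per cell cannot be told apart in such samples.

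The targeted and overexpressed genes were checked first. Cxcl5 was lower in Cxcl5-/- than in WT in the rescue table (38.4 ± 2.51 against 66 ± 2.48 CPM, SD, n = 2 each, log2 fold change -0.78, adjusted p = 0.00107 by edgeR). In 2D it was 34.3 ± 2.71 against 47.3 ± 1.78 CPM (SD, n = 3 each), with an adjusted p of 0.0705 by edgeR. In 3D of the second table the Cxcl5 transcript was instead higher under the knockout label. The libraries labelled 3D Cxcl5-/- were at 65.5, 40.9 and 45.5 CPM and those of 3D WT at 28.5, 24.5 and 28. The log2 fold change was 0.91 (adjusted p = 0.000173 by edgeR). The study checked the knockout by immunoblot for CXCL5 protein, also in 3D cells, and RNA counts do not measure protein. Because of the transcript level, each difference given here between the libraries labelled 3D Cxcl5-/- and 3D WT is a difference between libraries labelled so. In the same libraries Hif1a was lower than in 3D WT (159.6 ± 18.1 against 368.9 ± 35.9 CPM, SD, n = 3 each, log2 -1.21, adjusted p = 4.13e-07 by edgeR), and so was Myc (10.4 ± 1.15 against 35 ± 1.67 CPM, SD, n = 3 each, log2 -1.75, adjusted p = 8.94e-08 by edgeR). Hif1a in Hif1αOE cells was 0.94 above Cxcl5-/- on the log2 scale, but it was also 0.90 above in MycOE cells, which were not given Hif1a. Myc was 4.54 above Cxcl5-/- in MycOE cells and 0.25 above in Hif1αOE cells, the last without passing the test.

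The WT libraries of the rescue table stood apart from the other 8. They had 27353 and 27506 genes with at least 10 counts, against 19732 to 21560 in the rest. Of 21160 genes with at most 3 counts in every other library of the table, 1506 and 1494 had at least 10 counts in these 2. Low counts in WT there carry this background, whose part in the results was not tested. The 28730 genes tested in this table include genes that passed the filter on low counts through WT alone. Such genes can lower the share of all genes called between groups other than WT.

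Per kilobase of exon, which allows comparison between genes, Ltbp1 was the highest member in 9 of the 11 groups as a mean level, reaching 18.1 CPM per kb in 2D WT. The exceptions were MycOE cells, where Tgfb3 (2.83) and Tgfb1 (2.58) lay above Ltbp1 (2.32), and Cxcl5-/- of the rescue table, where Tgfb1 (8.41) and Tgfb3 (7.59) lay above Ltbp1 (6.77). Bmp4, a BMP ligand, was at or near 0 throughout: it had 0 counts in all 9 samples of the first table, at most 6 counts in the second, and 7 and 10 counts in WT against 0 in the other 8 libraries of the rescue table. It did not pass the filter on low counts and was not tested. The other 8 members were tested in every comparison.

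Across the 12 samples of the second table, the profile of each member on the log2 scale was set beside 14251 other genes. The most alike were Zfp395 for Tgfb1 (Pearson r 0.99), Uba6 for Tgfb2 (0.98), Mid1 for Tgfb3 (0.96), Ifrd1 for Inhba (0.98), Iqgap3 for Ltbp1 (0.99), Zkscan8 for Ltbp2 (0.97), Atxn7l2 for Tgfbi (0.99) and Cx3cl1 for Smad7 (0.99). Within the members, Tgfb1 and Tgfbi were most alike (0.97), and the nearest member to Inhba was Ltbp1 (0.75). These values describe 4 groups of 3 samples that share culture and genotype differences.

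**Figure D1:**
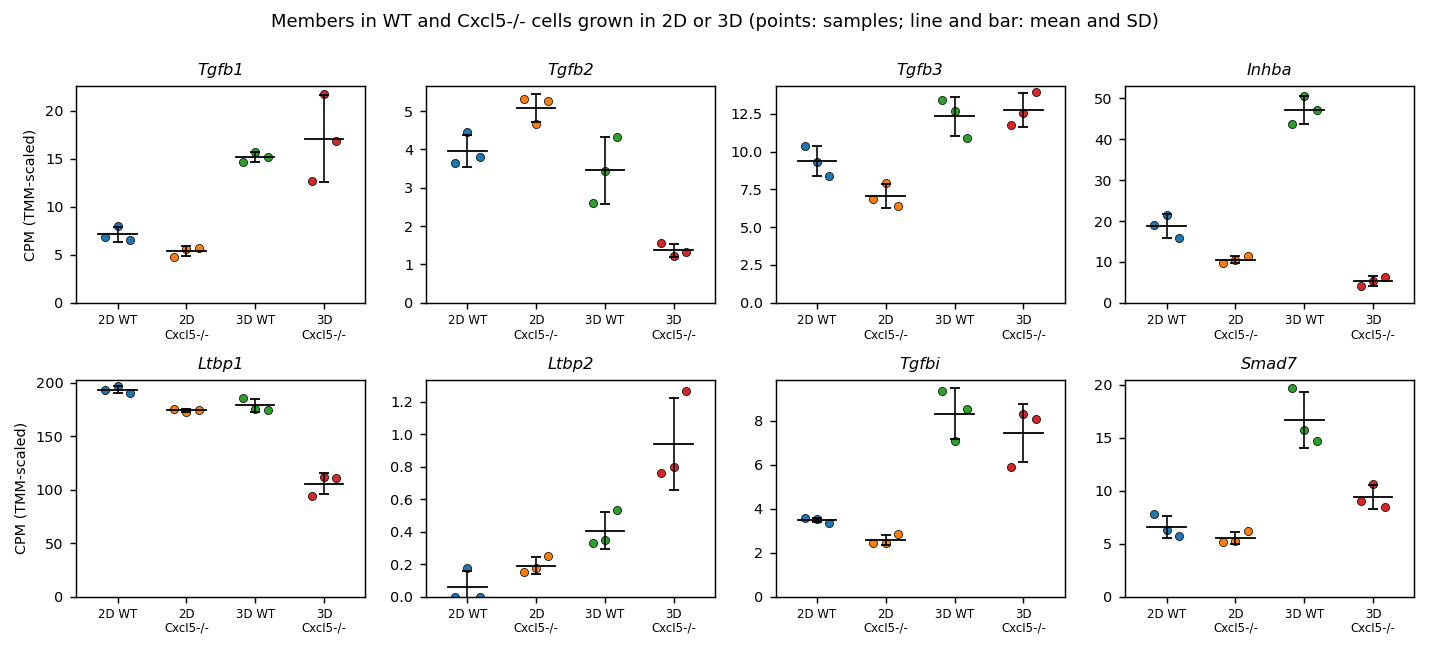
Level of the 8 tested members in CPM (vertical axis, from 0) in 2D WT, 2D Cxcl5-/-, 3D WT and libraries labelled 3D Cxcl5-/-, with 3 samples each (points), the mean (line) and SD (bar). Inhba shows 3D WT at 43.8 to 50.6 CPM, above every other sample, and the libraries labelled 3D Cxcl5-/- at 4.12 to 6.41 CPM, below all others.

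To see which members differ between 3D and 2D growth of WT cells, the 2 WT groups of the second table were compared. 6 of 8 tested members were higher in 3D and 0 were lower, where 44.3% of all 21367 tested genes were called (22.2% higher, 22.0% lower). The members' median log2 difference was 1.18, and that of all tested genes was 0.00. Scaling by library totals moved the latter to -0.21 and turned the members' calls to 5 higher and 1 lower, with Tgfb3 no longer called (0.18) and Ltbp1 called lower (-0.33).

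Among the ligands, Inhba stood at 19.2, 21.4 and 15.8 CPM in 2D WT and at 43.8, 50.6 and 47.3 CPM in 3D WT. The groups did not overlap, and Inhba rose by 1.33 on the log2 scale (SE 0.15, adjusted p = 6.96e-06 by edgeR). Tgfb1, the best known TGF-β ligand, was at 6.86, 7.96 and 6.52 CPM in 2D and at 14.6, 15.7 and 15.2 CPM in 3D. It rose by 1.09 (SE 0.17, adjusted p = 0.000119 by edgeR), again without overlap. Tgfb3 rose by less, 0.40 (SE 0.13, adjusted p = 0.0233 by edgeR), and lost its call without 2D WT replicate 3 (0.35, adjusted p = 0.0752) or without 3D WT replicate 1 (0.35, adjusted p = 0.0688). Tgfb2 differed by -0.20 (adjusted p = 0.438), with overlapping samples at 3.66, 4.45 and 3.8 CPM in 2D and 2.6, 3.43 and 4.34 CPM in 3D.

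Of the binding proteins, Ltbp1 was at 190.3 to 197.4 CPM in 2D WT and 174.9 to 185.8 CPM in 3D WT, a difference of -0.12 that did not pass (adjusted p = 0.265) although the samples did not overlap. Ltbp2 was barely expressed, with 0, 12 and 0 counts in 2D WT and 17, 15 and 29 counts in 3D WT. Its call (2.71, SE 0.84, adjusted p = 0.0181 by edgeR) was lost without 3D WT replicate 3 (adjusted p = 0.0596), and without 2D WT replicate 2 the remaining 2D WT libraries held 0 counts (7.61). The targets both rose. Tgfbi, a secreted matrix adhesion protein, went from 3.37 to 3.56 CPM in 2D to 7.05 to 9.36 CPM in 3D (log2 1.26, SE 0.17, adjusted p = 2.93e-05 by edgeR). Smad7, the inhibitory SMAD that feeds back on the receptors, went from 5.73 to 7.74 CPM in 2D to 14.7 to 19.7 CPM in 3D (log2 1.34, SE 0.16, adjusted p = 1.02e-05 by edgeR).

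Genes around the members were counted from 8 lists of the pathway holding 106 other genes, of which 83 were tested in this table. In 3D WT against 2D WT, 35 rose and 10 fell, where 22.2% of all tested genes rose and 22.0% fell. With library totals 29 rose and 17 fell. Of 18 tested TGF-β targets 13 rose and 1 fell. Vegfa rose by 2.84 and Col1a1 by 3.04, while the matricellular target Ccn2 was the 1 that fell, by 1.50. Of 9 tested extracellular antagonists 5 rose and 0 fell, among them Fstl3, which binds activin (3.75), and the proteoglycan Dcn (6.65). Of 11 tested receptors 4 rose, including Tgfbr2 (1.14) and Acvr1b (1.51), and 1 fell, the type I receptor Tgfbr1 (-0.55). Receptors were thus called about as often as all tested genes (44.3%).

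To see whether loss of Cxcl5 is accompanied by other transcript levels of the members, Cxcl5-/- was compared with WT in 2D and in 3D. In 2D, 1 of 8 members was called, against 7.03% of all tested genes (3.86% higher, 3.17% lower). This was Inhba, at 9.72, 10.5 and 11.4 CPM in 2D Cxcl5-/- against 19.2, 21.4 and 15.8 CPM in 2D WT. Inhba was lower by 0.83 on the log2 scale (-0.83, SE 0.15, adjusted p = 0.00311 by edgeR), with no overlap. For the other 7 tested members the log2 differences lay between -0.44 (Tgfbi) and 1.62 (Ltbp2) without passing. Ltbp2 was called without 2D WT replicate 2, when both remaining 2D WT libraries were at 0 counts. Below the threshold, Tgfb1, Tgfb2, Tgfb3, Ltbp1 and Tgfbi had no overlap between the groups, as had 20.5% of all genes that were not called.

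In 3D, 4 of 8 members were lower in the libraries labelled Cxcl5-/- and 0 were higher, against 45.0% of all genes called (19.7% higher, 25.3% lower). The median log2 difference of the members was -0.46, and that of all genes was -0.04. With library totals the median of all genes moved to 0.35, and the members' calls became 2 higher (Tgfb1 0.58, Tgfb3 0.44) and 3 lower, Smad7 (-0.44) missing the threshold. Inhba was at 4.12, 5.34 and 6.41 CPM against 43.8, 50.6 and 47.3 CPM in 3D WT, 8.92-fold lower (log2 -3.16, SE 0.16, adjusted p = 7.35e-09 by edgeR). It was the member with the greatest difference here, and all its low samples lay below every sample of 2D culture. Tgfb2 was at 1.56, 1.23 and 1.33 CPM against 2.6, 3.43 and 4.34 CPM (log2 -1.33, SE 0.20, adjusted p = 0.000123 by edgeR). Ltbp1 was at 94.4, 111.6 and 111.2 CPM against 185.8, 175.5 and 174.9 CPM (log2 -0.76, SE 0.08, adjusted p = 4.91e-06 by edgeR). Smad7 was at 9.03, 10.6 and 8.44 CPM against 19.7, 15.7 and 14.7 CPM (log2 -0.83, SE 0.15, adjusted p = 0.000635 by edgeR). None of these 4 members overlapped between the groups, which held for 54.4% of all tested genes.

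Tgfb1 (0.17, adjusted p = 0.433), Tgfb3 (0.05, adjusted p = 0.782) and Tgfbi (-0.16, adjusted p = 0.44) overlapped between the 3D groups and did not pass. Ltbp2 had 48, 46 and 83 counts in the libraries labelled 3D Cxcl5-/- and 17, 15 and 29 in 3D WT, without overlap but also without passing (1.21, adjusted p = 0.178). The fibroblast marker list was at a summed 393 to 446 CPM in the libraries labelled 3D Cxcl5-/- and at 150 to 158 CPM in 3D WT. Pdgfra (213.9 against 21.4 CPM) and Pdgfrb (205.8 against 88.3 CPM) made up most of the sum and were higher, while Dcn (-3.74) and Lum (-1.27) on the same list were lower. Of its 5 genes Thy1 was at or below the floor in the former group. The 8 ductal markers summed to 224 to 240 CPM in the former and 855 to 1100 CPM in the latter, and the 6 macrophage markers to 14.6 to 23.9 and 7.35 to 8.85 CPM, with Adgre1 at or below the floor in both groups. The part of these cell markers in the differences was not tested.

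The genotype effect itself was compared between 3D and 2D by the interaction term. It was called for 3 of 8 members, all with the more negative effect in 3D, where 27.2% of all genes were called (11.1% more positive, 16.1% more negative). These were Inhba (-2.33, SE 0.21, adjusted p = 7.21e-06 by edgeR), Tgfb2 (-1.69, SE 0.28, adjusted p = 0.00063) and Ltbp1 (-0.60, SE 0.11, adjusted p = 0.0015). With library totals Ltbp1 (-0.23) was not called, and Tgfb1 (0.97) and Tgfb3 (0.83) were called with the more positive effect in 3D, where the median of all genes lay at 0.32. Smad7 missed the threshold (-0.59, adjusted p = 0.0632), although it passed without 2D WT replicate 1 (adjusted p = 0.0276), 3D WT replicate 3 (0.0401) or 3D Cxcl5-/- replicate 2 (0.0495), each by edgeR, and by the DESeq2 Wald test with all samples (adjusted p = 0.0438). Ltbp2 (-0.41, adjusted p = 0.826) was at -5.34 without 2D WT replicate 2 (adjusted p = 0.01). Tgfb1 (0.58, adjusted p = 0.0874) passed without 3D Cxcl5-/- replicate 1 (0.71, adjusted p = 0.0139).

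All 8 members differed between the libraries labelled 3D Cxcl5-/- and 2D Cxcl5-/-, against 57.0% of all genes (28.7% higher, 28.2% lower). Tgfb1 (1.67), Tgfb3 (0.85), Ltbp2 (2.29), Tgfbi (1.53) and Smad7 (0.76) were higher in 3D, and Tgfb2 (-1.88), Inhba (-0.99) and Ltbp1 (-0.72) were lower. Inhba in WT had instead been 1.33 higher in 3D. Ltbp2 lost its call when 2D Cxcl5-/- replicate 1 (adjusted p = 0.0532) or replicate 2 (0.0513) or the library labelled 3D Cxcl5-/- replicate 3 (0.0717) was left out, each by edgeR.

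**Figure D2:**
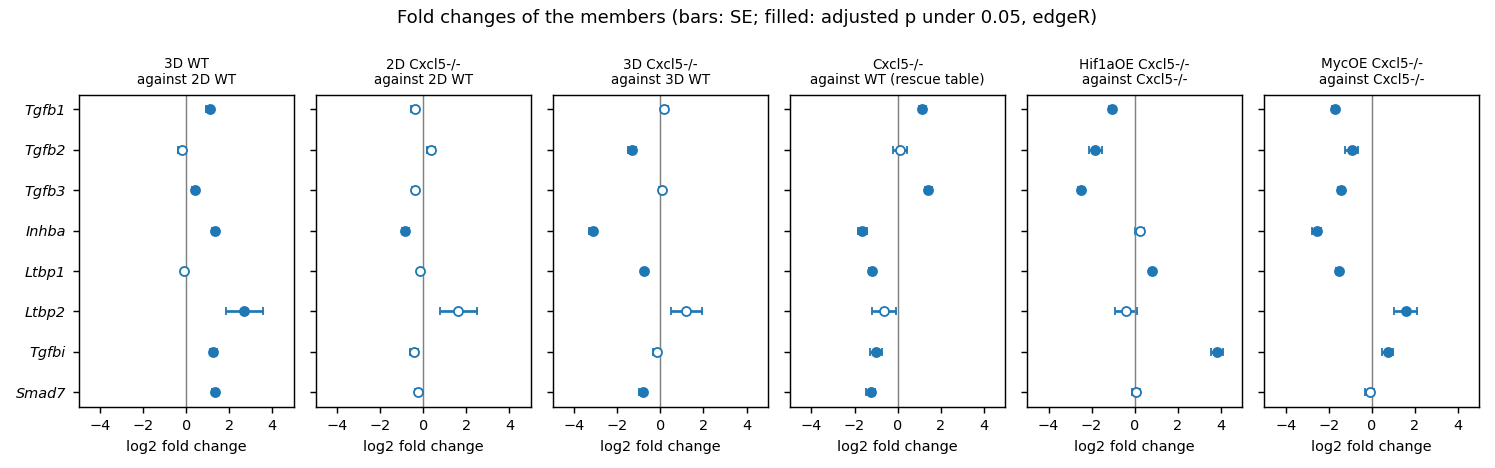
Log2 fold change of the 8 tested members (horizontal axis) with its SE (bar) in 6 comparisons, filled where the adjusted p of edgeR was under 0.05. Inhba lies left of 0 in all 3 Cxcl5-/- against WT comparisons (-0.83, -3.16 and -1.64), and Tgfbi lies farthest right in Hif1αOE Cxcl5-/- (3.83).

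A further comparison of 3D Cxcl5-/- and WT cells, with other libraries, came from the rescue table. Of 8 members 2 were higher and 4 lower in Cxcl5-/-, against 41.9% of all 28730 genes called (17.6% higher, 24.3% lower). The median of all genes was -0.30 here and -0.01 among the 16095 genes with at least 10 counts in every library, a limit chosen after the data were seen, under which the members' 6 calls stood. Inhba was at 7.84 and 9 CPM in Cxcl5-/- and at 25 and 27.5 CPM in WT (log2 -1.64, SE 0.22, adjusted p = 0.00014 by edgeR). Ltbp1 was at 77.4 and 67.4 CPM against 153.8 and 180.6 CPM (log2 -1.21, SE 0.11, adjusted p = 7.83e-06 by edgeR). Smad7 was at 10.1 and 8.51 CPM against 20.8 and 23.7 CPM (log2 -1.26, SE 0.21, adjusted p = 0.000797 by edgeR). These 3 members were called lower in Cxcl5-/- in both tables, 3 of the 4 called in the second table and 3 of the 6 called in the rescue table. Over all 21058 genes tested in both tables, calls in the same direction made up 64.1% and 64% of the calls.

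The other members did not move alike in the 2 tables. Tgfb1 was at 43.9 and 40.9 CPM in Cxcl5-/- and at 19.8 and 18.6 CPM in WT, where it was called higher (log2 1.14, SE 0.17, adjusted p = 0.000277 by edgeR). Tgfb3 was at 22.2 and 29.1 CPM against 9.82 and 9.22 CPM (log2 1.43, SE 0.16, adjusted p = 3.67e-05 by edgeR). Tgfb2, lower in the second table, was at 4.61 and 4.16 CPM against 4.61 and 3.57 CPM here (0.10, adjusted p = 0.825). Tgfbi was at 2.2 and 1.2 CPM against 3.02 and 3.85 CPM (log2 -1.02, adjusted p = 0.0152 by edgeR), a call lost without WT replicate 2 (-0.83, adjusted p = 0.0843) or Cxcl5-/- replicate 2 (-0.64, adjusted p = 0.128). Ltbp2, at 12 and 34 counts against 36 and 30, overlapped (-0.62, adjusted p = 0.384). Fibroblast markers summed to 447 to 454 CPM in Cxcl5-/- and 72.4 to 76.2 CPM in WT, and ductal markers to 294 to 310 and 861 to 907 CPM, whose part was not tested. The differences between the tables were not tested, since each table was normalised on its own.

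**Figure D3:**
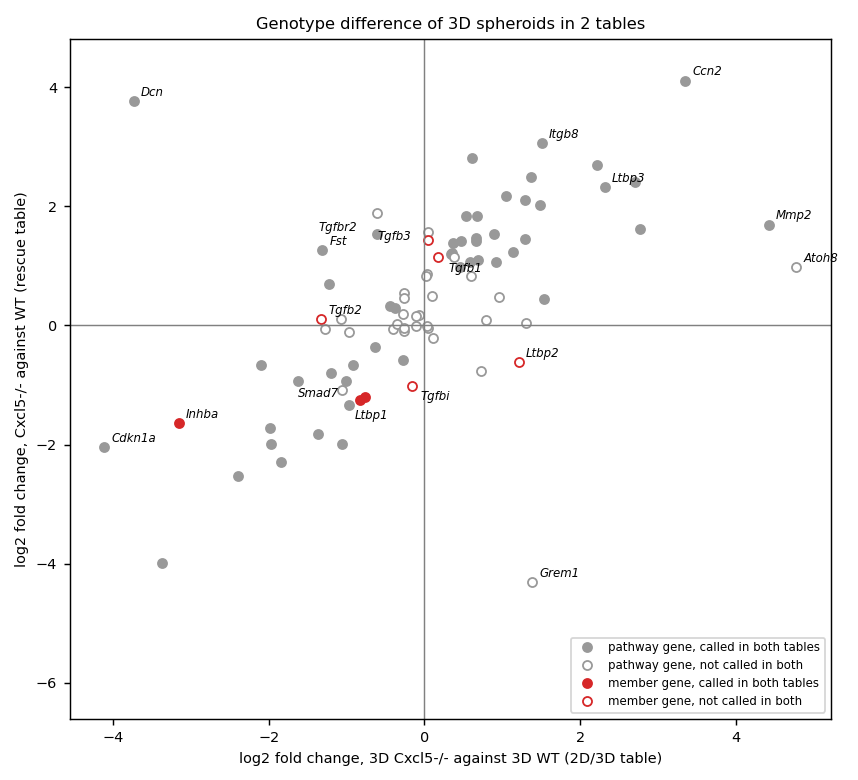
Log2 fold change of Cxcl5-/- against WT in 3D, in the second table (horizontal axis) and in the rescue table (vertical axis), for 8 members (red) and 80 other pathway genes (grey), filled where called in both. Bmp7 and Acvrl1, at or below 3 counts per library in a group, are left out. Inhba, Ltbp1 and Smad7 lie at the lower left among the genes lower in both tables.

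The other pathway genes were read in the same pair of comparisons. Of 82 tested in both tables, 63 were called in the second and 58 in the rescue table, beside 9568 and 9576 of 21058 genes. Those higher in both numbered 29 and those lower in both 17, together 73.0% of the calls in the second table and 79.3% of those in the rescue table, and 6 were called in opposite directions. Of the 21058 genes tested in both tables, those called in the same direction made up 64.1% of the calls in the second table and 64.0% of those in the rescue table. In the second table alone 31 rose and 32 fell, or 38 and 21 with library totals. Of all tested genes, 19.7% were called higher and 25.3% lower in the second table, and 17.6% and 24.3% in the rescue table. Genes of latency and activation were mostly higher: 9 of 14 tested rose and 2 fell in the second table, and 11 of 16 rose and 2 fell in the rescue table. They include Ltbp3, the binding protein closest in role to Ltbp1, at 190.8 ± 55.1 against 38.3 ± 2.37 CPM in the second table (SD, n = 3 each, log2 2.32) and at 303.2 ± 0.636 against 60.6 ± 1.5 CPM in the rescue table (SD, n = 2 each, log2 2.32). Itgb8, a subunit of the integrin that releases latent TGF-β, was higher by 1.50 and 3.06, and Mmp2 by 4.42 and 1.69.

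Among other ligands, Inhbb, which encodes the second activin subunit, was higher in Cxcl5-/- by 1.05 in the second table and 2.18 in the rescue table, while Inhba was lower in both. Gdf15, a stress-induced ligand, was lower by 1.97 on the log2 scale in the second (-1.97) and by a like amount in the rescue table (-1.99). Bmp7 had at most 3 counts in each 3D WT library of the second table and was at least 37.3-fold higher in the libraries labelled 3D Cxcl5-/-. Of the antagonists, Fstl3 was lower in both (-1.99 and -1.73), but Fst, which binds activin too, was lower in the second table (-1.31) and higher in the rescue table (1.26), as was Dcn (-3.74 and 3.76).

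The TGF-β targets split. Of 18 tested, 4 rose and 11 fell in the second table, while 5 rose and 8 fell in the rescue table. Of all tested genes, 19.7% rose and 25.3% fell in the second table, and 17.6% and 24.3% in the rescue table. Cdkn1a, the cell cycle inhibitor p21 (-4.11 and -2.05), and Snai2 (-1.37 and -1.83) fell in both. Ccn2 (3.35 and 4.11), smooth muscle actin Acta2 (2.21 and 2.70) and fibronectin Fn1 (1.29 and 1.45) rose in both. Pmepa1, an inhibitor of SMAD signalling that TGF-β induces, rose in both (1.48 and 2.02), in contrast to Smad7. Tgfbr2 fell in the second table (-0.62) and rose in the rescue table (1.53), and Tgfbr1 and Smad3 rose in both (0.36 and 1.38, 0.68 and 1.10).

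**Figure D4:**
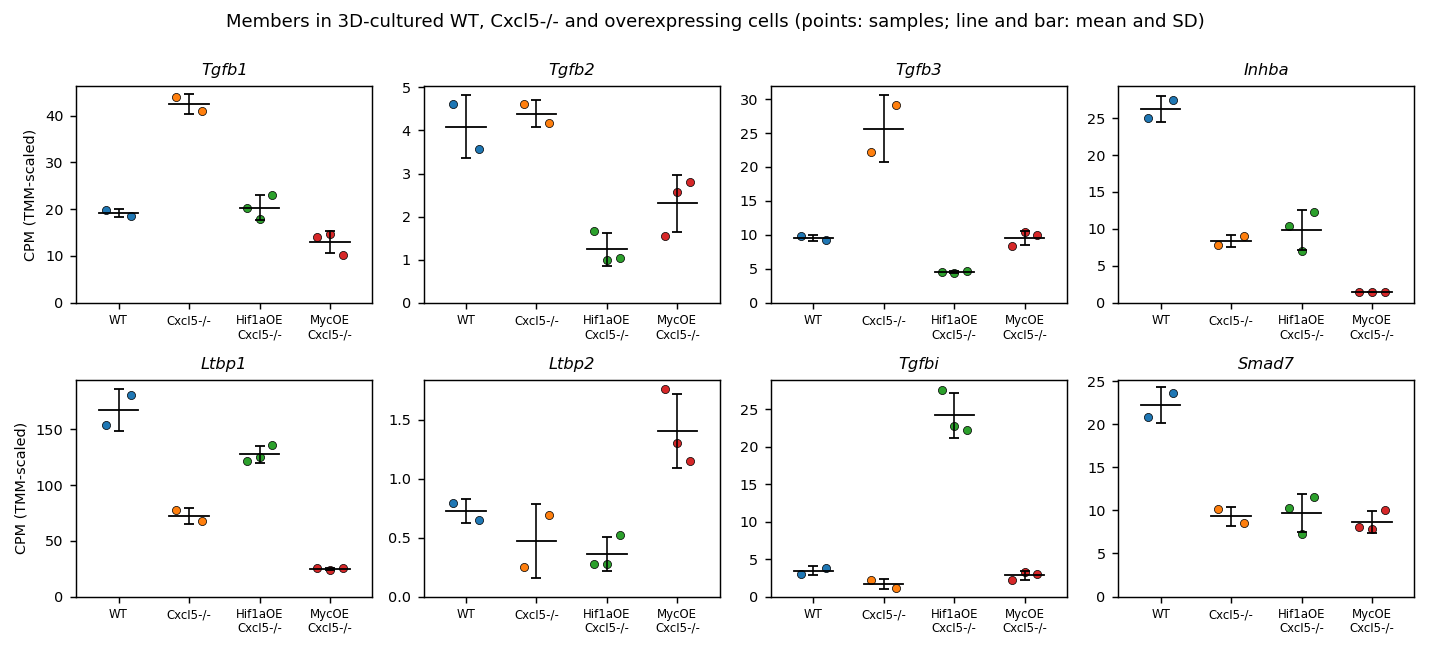
Level of the 8 tested members in CPM (vertical axis, from 0) in 3D-cultured WT and Cxcl5-/- (2 samples each) and Hif1αOE Cxcl5-/- and MycOE Cxcl5-/- cells (3 each), as points with the mean (line) and SD (bar). Tgfbi lies at 22.2 to 27.6 CPM in Hif1αOE Cxcl5-/- and below 4 CPM elsewhere, and Inhba lies lowest in MycOE Cxcl5-/-.

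To see what overexpression of Hif1a adds in Cxcl5-/- cells, Hif1αOE Cxcl5-/- was compared with Cxcl5-/-. Of 8 members 2 were higher and 3 lower, against 35.5% of all genes called (20.5% higher, 15.0% lower), and the median of all genes was 0.16. Ductal markers summed to 709 to 841 CPM in Hif1αOE cells and to 294 to 310 CPM in Cxcl5-/-, with Epcam at or below the floor in both. Fibroblast markers summed to 131 to 171 and 447 to 454 CPM, with Pdgfra at 5.77 against 110.5 CPM and Lum at 4.52 against 86.8 CPM. Their part in the differences was not tested. Tgfbi was at 27.6, 22.8 and 22.2 CPM against 2.2 and 1.2 CPM in Cxcl5-/-, 14.2-fold higher (log2 3.83, SE 0.28, adjusted p = 2.17e-06 by edgeR). It also lay 2.81 above WT on the log2 scale (adjusted p = 4.38e-05 by edgeR), without overlap. Ltbp1 was at 121.7, 125 and 136.2 CPM against 77.4 and 67.4 CPM (log2 0.82, SE 0.10, adjusted p = 6.88e-05 by edgeR). It remained 0.39 below WT (-0.39, adjusted p = 0.0145 by edgeR), a call that was lost without WT replicate 2 (adjusted p = 0.233).

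All 3 TGF-β ligands were lower in Hif1αOE Cxcl5-/- than in Cxcl5-/-. Tgfb3 was at 4.59, 4.4 and 4.64 CPM against 22.2 and 29.1 CPM (log2 -2.50, SE 0.14, adjusted p = 4.8e-07 by edgeR). Tgfb1 was at 20.3, 17.8 and 23 CPM against 43.9 and 40.9 CPM (log2 -1.06, SE 0.15, adjusted p = 0.000195 by edgeR), and overlapped with WT at 19.8 and 18.6 CPM (0.09, adjusted p = 0.72). Tgfb2 was at 1.67, 0.996 and 1.05 CPM against 4.61 and 4.16 CPM (log2 -1.83, SE 0.31, adjusted p = 0.00072 by edgeR). Inhba, at 10.4, 6.96 and 12.3 CPM, overlapped with Cxcl5-/- (0.23, SE 0.20, adjusted p = 0.399) and stayed 1.41 below WT (-1.41, adjusted p = 0.000488 by edgeR). Without Hif1αOE replicate 2 its difference from Cxcl5-/- was 0.43 (adjusted p = 0.0331 by edgeR). Smad7 likewise overlapped with Cxcl5-/- (0.06, adjusted p = 0.857) and was 1.20 below WT (-1.20, adjusted p = 0.00123 by edgeR). Ltbp2, at 14, 16 and 29 counts, did not pass against Cxcl5-/- (-0.38, adjusted p = 0.601).

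In MycOE Cxcl5-/- against Cxcl5-/-, 5 of 8 members were lower and 2 higher, against 39.6% of all genes called (21.6% higher, the remainder lower). Fibroblast markers summed to 310 to 340 CPM in MycOE cells against 447 to 454 CPM. Lum (1.58 against 86.8 CPM) and Dcn (2.1 against 61.4 CPM) on that list were called lower. Pdgfra was at 149.2 against 110.5 CPM and Pdgfrb at 170.9 against 191.6 CPM, neither past the threshold. Ductal markers summed to 271 to 315 against 294 to 310 CPM. The part of these cell markers was not tested. Inhba was at 1.44, 1.39 and 1.45 CPM against 7.84 and 9 CPM (log2 -2.56, SE 0.21, adjusted p = 3.18e-06 by edgeR), the lowest of any group in the rescue table, and was 18.4-fold below WT (log2 -4.20). Ltbp1 was at 25.4, 23.6 and 25.5 CPM against 77.4 and 67.4 CPM (log2 -1.55, SE 0.10, adjusted p = 5.86e-07 by edgeR), 2.75 below WT (-2.75). Tgfb1 was at 14, 14.8 and 10.3 CPM (log2 -1.71, SE 0.15, adjusted p = 4.99e-06 by edgeR) and Tgfb3 at 8.38, 10.4 and 9.96 CPM (log2 -1.42, SE 0.14, adjusted p = 1.11e-05 by edgeR). The 4 members named here had no overlap with Cxcl5-/-, which held for 58.5% of all tested genes.

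3 calls of MycOE Cxcl5-/- against Cxcl5-/- were near the threshold. Tgfb2 (-0.93, adjusted p = 0.0315) lost its call without either Cxcl5-/- replicate (0.165 and 0.0948) or MycOE replicate 1 (0.0835), each by edgeR. Ltbp2 (1.57, adjusted p = 0.0316), at 83, 60 and 65 counts against 12 and 34, lost it without Cxcl5-/- replicate 1 (0.246), MycOE replicate 1 (0.0848) or MycOE replicate 2 (0.0516), each by edgeR. Tgfbi (0.73, adjusted p = 0.0455), whose groups overlapped, lost it without Cxcl5-/- replicate 2 (0.362), MycOE replicate 2 (0.121) or MycOE replicate 3 (0.0915), each by edgeR. Library totals, under which the median of all genes was -0.11 and not 0.11, left 5 members lower and 0 higher. Smad7, at 8.08, 7.81 and 10.1 CPM, did not differ past the threshold from Cxcl5-/- (-0.10, adjusted p = 0.717) and was 1.36 below WT (-1.36, adjusted p = 0.000327 by edgeR).

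The 2 overexpressing lines were then compared directly. In MycOE against Hif1αOE cells 7 of 8 members were called, against 19.3% of all genes (9.54% higher, 9.73% lower). The latter share includes genes that passed the filter through WT alone. Tgfbi was lower in MycOE (-3.10, SE 0.23, adjusted p = 3.48e-06 by edgeR), as were Inhba (-2.79, SE 0.20, adjusted p = 3.06e-06), Ltbp1 (-2.36, SE 0.09, adjusted p = 4.36e-08) and Tgfb1 (-0.65, SE 0.14, adjusted p = 0.00654). Tgfb3 (1.07), Ltbp2 (1.95) and Tgfb2 (0.90) were higher, the last with overlapping samples, an adjusted p of 0.0491 by edgeR and a call lost when any of 4 libraries was left out, Hif1αOE replicates 2 and 3 and MycOE replicates 2 and 3 (adjusted p = 0.123 to 0.149). Against WT, 1 member was higher and 5 lower in Hif1αOE cells (24.2% of all genes called, 13.9% higher and 10.3% lower), and 0 were higher and 4 lower in MycOE cells (31.8%, 17.1% higher and 14.7% lower). Tgfb2 in MycOE cells (-0.82, adjusted p = 0.0611) was called lower with size factors (adjusted p = 0.0372), library totals (0.0298), the DESeq2 Wald test (0.0315) and at least 10 counts in every library (0.0173). In MycOE cells Tgfb1 (-0.56, adjusted p = 0.0178) was no longer called without WT replicate 1 (0.104) or WT replicate 2 (0.0564), each by edgeR.

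Of the 95 other pathway genes tested, 12 rose and 43 fell in Hif1αOE cells relative to Cxcl5-/-, 57.9% called beside 35.5% of all genes (20.5% higher, 15.0% lower). In MycOE cells 12 rose and 40 fell, 54.7% called beside 39.6% of all genes (21.6% higher, the remainder lower). Both shares of all genes include those that passed the filter through WT alone. Genes of latency and activation fell in 11 of 16 cases in each line and rose in 0 and 2 cases. Ltbp3 fell by 1.91 in Hif1αOE cells and by 1.64 in MycOE cells, and Inhbb by 1.28 and 1.65. Acvr1, a BMP type I receptor, fell in both (-1.57 and -1.92), and the SMAD inhibitor Ski did so too (-1.35 and -1.38). Of the 18 TGF-β targets, 5 rose and 6 fell in each line. Acta2 fell in Hif1αOE cells (-3.82) and rose in MycOE cells (1.33). Ccn2 fell from 277.2 ± 0.424 CPM (SD, n = 2) in Cxcl5-/- to 12.7 ± 3.05 CPM (SD, n = 3) in Hif1αOE cells (log2 -4.45) and by 1.08 in MycOE cells. Both sets of values share the Cxcl5-/- libraries.

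The conditioned media were compared to ask which genes macrophage factors change in spheroids. None of the 8 tested members was called by edgeR in any of the 3 comparisons. 3 members were at an unadjusted p under 0.05 in M1-CM against Ctrl, 2 in M1-CM against M0-CM and 1 in M0-CM against Ctrl, beside 4.70%, 2.59% and 2.96% of all genes. Of all 19207 tested genes, 0.0156% were called in each M1-CM comparison and 0 in M0-CM against Ctrl, where 569 were at an unadjusted p under 0.05. Cxcl5 itself was 2.76 higher with M1-CM than in Ctrl on the log2 scale (adjusted p = 0.000474 by edgeR).

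Ltbp2 came nearest. It was at 0.936, 1.12 and 1.15 CPM in Ctrl, at 1.01, 0.884 and 0.786 CPM with M0-CM and at 5.65, 4.27 and 2.11 CPM with M1-CM. The M1-CM samples lay above all others, by 1.91 on the log2 scale relative to Ctrl and by 2.16 relative to M0-CM (SE 0.40 for each), with edgeR adjusted p = 0.386 and 0.574. The DESeq2 Wald test called both, with adjusted p = 0.00204 and 0.00022, and it called 107 and 34 of all genes there, and 22 genes but 0 members in M0-CM against Ctrl. Ltbp2 is in a gene list that the study made from these libraries, so its direction is not independent evidence.

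**Figure D5:**
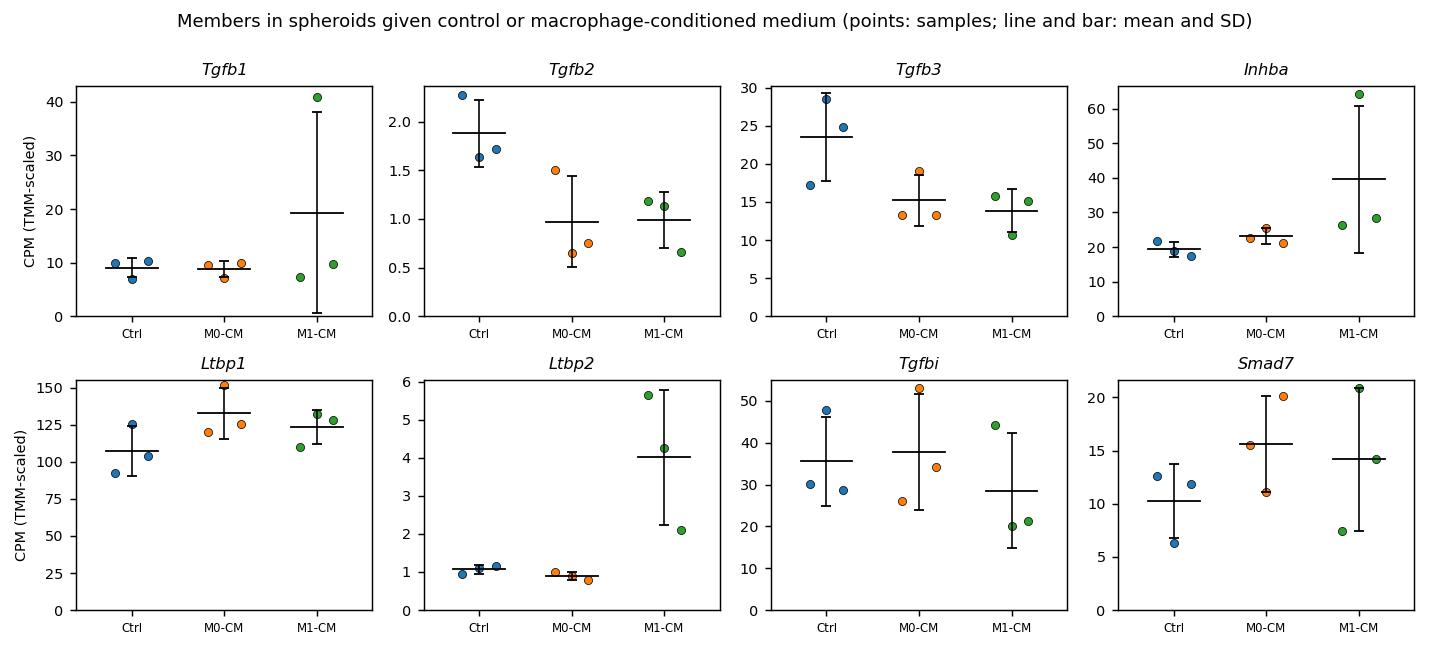
Level of the 8 tested members in CPM (vertical axis, from 0) in Ctrl, M0-CM and M1-CM spheroids, 3 samples each (points), with the mean (line) and SD (bar). For Tgfb1 and Inhba 1 of the 3 M1-CM samples, replicate 2, lies far above the other 2, at 40.9 and 64.1 CPM.

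Tgfb1 and Inhba had means about 1 log2 unit above Ctrl with M1-CM that rested on 1 library. Tgfb1 was at 7.36, 40.9 and 9.69 CPM with M1-CM and at 9.99, 7.01 and 10.3 CPM in Ctrl (1.09, adjusted p = 0.965), and without M1-CM replicate 2 the difference was -0.09. Inhba was at 26.3, 64.1 and 28.3 CPM against 21.7, 18.8 and 17.5 CPM (1.03, adjusted p = 0.898), without overlap, and without that replicate it was 0.50. That library had the lowest total of its table, 43875429 counts. Tgfb2 and Tgfb3 were lower in every M1-CM sample than in any Ctrl sample (-0.92 and -0.76, adjusted p = 0.965 for each), and 8.49% of all genes had no overlap there. With M0-CM, Tgfb2 was at 0.969 ± 0.467 CPM beside 0.993 ± 0.288 CPM with M1-CM (SD, n = 3 each), again below every Ctrl sample, and Tgfb3 was at 15.2 ± 3.37 beside 13.9 ± 2.84 CPM (SD, n = 3 each), its M0-CM samples overlapping with Ctrl. Tgfbi, at 20.1 to 53.1 CPM over the 9 samples, and Smad7, at 6.26 to 20.9 CPM, overlapped between the groups. Of the 83 other pathway genes tested, 0 were called in each comparison by edgeR, and 7, 5 and 7 were at an unadjusted p under 0.05 in M1-CM against Ctrl, M1-CM against M0-CM and M0-CM against Ctrl, beside 903, 498 and 569 of all 19207 genes.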

How the data were processed

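RNA was measured by RNA-seq in 31 Panc02 samples. The authors prepared TruSeq stranded total RNA libraries, aligned reads with HISAT2 to mm10 and quantified genes with StringTie. The annotation release, strand setting and conversion to counts are not given in the sources used here. The deposited values are raw read counts per gene in 3 tables, holding no other value columns. Members share exonic bases with antisense genes in some cases (Tgfb2, Tgfb3, Ltbp2 and Bmp4), so those counts are uncertain.

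Each table was fitted on its own over all its groups, as TMM-scaled counts with filterByExpr and edgeR's quasi-likelihood F test (edgeR 4.0.16, limma 3.58.1, R 4.3.3), with Benjamini-Hochberg adjustment over 19207, 21367 and 28730 genes and a threshold of 0.05. The SE is the log2 fold change divided by the root of F. The authors tested with DESeq2, which served here as an alternative (DESeq2 1.42.0), beside its size factors, library totals, no filter, a replicate block and leaving out each sample. Depth was 41542533 to 78498230 counts, and floors cover counting error only. The procedure was tested on simulated counts.

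The members and lists were chosen with earlier results of these data known. Named genes were the 9 members, Cxcl5, Hif1a and Myc, and for each pathway list and comparison up to 3 called genes with the largest change, no overlap and a mean count of at least 50; a gene named in one comparison may be given in others, and 1 gene that the rule names is not reported here. No pairing by replicate number is stated, and none was used in the main fit. Deviations of same-numbered samples correlated from -0.24 to 0.36, from -0.096 to 0.18 and from -0.025 to 0.05 in the 3 tables. In the first table the TMM factors of Ctrl, M0-CM and M1-CM were 1.04, 1.02 and 1.03 for replicate 1. For replicate 3 they were 0.979, 0.918 and 0.954, so a shared batch there is not excluded.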

Additional observations from a re-analysis of the deposited data

Results flagged for a closer look

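For 3 members the difference between Cxcl5-/- and WT was not the same in 3D as in 2D, by the interaction term of edgeR's fit. For Inhba the 3D difference exceeded that in 2D by -2.33 on the log2 scale (adjusted p = 7.21e-06), with -3.16 in 3D and -0.83 in 2D. For Tgfb2 the term was -1.69 (adjusted p = 0.00063), with -1.33 in 3D and 0.36 in 2D, the latter not past the threshold. For Ltbp1 it was -0.60 (adjusted p = 0.0015), with -0.76 in 3D and -0.15 in 2D, and it was not called with library totals (-0.23, adjusted p = 0.328). In the 3D libraries labelled Cxcl5-/- the Cxcl5 transcript was higher than in WT.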

How the results depend on the processing

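Of 57 called member results, the DESeq2 Wald test kept 57, size factors 56, library totals 51, no filter 53 and the replicate block 56, and leaving out 1 sample kept 302 of 326. None of the 57 changed direction under these settings. The block lost Ltbp2 in MycOE against Cxcl5-/- (1.54, adjusted p = 0.0519). Whether samples of the same replicate number shared a batch is not stated. The Wald test called 1 member in M1-CM against Ctrl and 1 against M0-CM, and 1 pathway gene in M1-CM against Ctrl. Over all genes it called 107, 34 and 22 in the 3 media comparisons, against 3, 3 and 0 by edgeR. Without the filter 4 and not 7 members were called in MycOE against Cxcl5-/-. Leaving out 1 sample gave 1 to 2 calls in 2D Cxcl5-/- against 2D WT.

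Differences that changed sign were not called. With library totals, Tgfbi was 0.25 in 3D Cxcl5-/- against 3D WT. By the Wald test, Tgfb2 was -0.0004 in Cxcl5-/- against WT of the rescue table. In Hif1αOE against Cxcl5-/-, Smad7 was -0.15 with totals, -0.083 with the replicate block and -0.001 with at least 10 counts in every sample. In Hif1αOE against WT, Tgfb1 was -0.05 with size factors, -0.082 with totals, -0.040 by the Wald test and -0.07 with at least 10 counts. In MycOE against WT, Tgfb3 was -0.12, -0.28, -0.11 and -0.15 in that order, and -0.025 with the block. The causes were not tested.

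Leaving out 1 sample also turned uncalled log2 differences, over the ranges in M1-CM against Ctrl Tgfb1 -0.091 to 1.47, in M1-CM against M0-CM Tgfb1 -0.054 to 1.50, Tgfb2 -0.19 to 0.50, Tgfb3 -0.24 to 0.064, Ltbp1 -0.17 to 0.0044 and Smad7 -0.53 to 0.17, in M0-CM against Ctrl Tgfb1 -0.20 to 0.10 and Tgfbi -0.24 to 0.35. The ranges were in 3D Cxcl5-/- against 3D WT Tgfb1 -0.0028 to 0.32 and Tgfb3 -0.059 to 0.099, in the interaction Ltbp2 -5.34 to 0.14, in Cxcl5-/- against WT of the rescue table Tgfb2 -0.067 to 0.29, in Hif1αOE against Cxcl5-/- Ltbp2 -0.92 to 0.54 and Smad7 -0.088 to 0.24. They were in MycOE against Cxcl5-/- Smad7 -0.23 to 0.042, in Hif1αOE against WT Tgfb1 -0.011 to 0.17, in MycOE against WT Tgfb3 -0.060 to 0.083.

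Counts near the floor limit Ltbp2 and Bmp4, and 2 samples a group limit the rescue table.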
